A study of Mus musculus with 29 samples.

Results

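The comparison described here asked what postnatal cardiac loss of PKCδ added to the heart of mice that already lacked PKCε, without stress. All 4 unstressed libraries of the combined ablation were set against all 3 unstressed libraries of the germline PKCε knockout, 7 of the 29 libraries of the series, over all 13765 genes that passed the filter on low counts. The series measured polyadenylated RNA of the ventricular apex (the tissue label reads whole heart) in wild-type, PKCδ, PKCε and combined-ablation hearts, unstressed or 4 weeks after transverse aortic constriction (TAC), an operation that overloads the left ventricle with pressure. Both groups were C57BL/6J mice labelled male and 12 weeks old, and both carried the germline knockout of Prkce. The combined group carried in addition the postnatal ablation of Prkcd, which the labels describe as cardiac. Neither a promoter, a Cre line nor a deleted exon is named for the ablation. Libraries carry 1 title each and no animal is named, so the p-values speak of spread among libraries, which may be technical. A gene is called higher or lower here where the combined libraries differed from the PKCε libraries at an adjusted p below 0.05 in edgeR's quasi-likelihood test.

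Protein kinase C δ and ε are kinases that need diacylglycerol but not calcium for their activation, and in heart muscle they act downstream of Gq-coupled receptors such as those for angiotensin II, endothelin and noradrenaline. Both are known for opposed roles in ischaemic injury and for roles in the growth of cardiac myocytes. Adult mouse ventricle makes mostly α-myosin heavy chain (Myh6), while β-myosin heavy chain (Myh7) and skeletal α-actin (Acta1) belong to the fetal programme that returns in overloaded hearts.

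Counts assigned to genes ranged from 10931271 to 15264623 over the 7 libraries. The ribosomal RNA gene Rn45s took 11.2% to 12.6% of them in PKCε and 10.5% to 13.6% in combined libraries. After TAC it took 4.53% to 8.59% in the same genotypes. The first principal component of the 7 held 58.4% of the variance and separated the groups, with combined replicate 1 farthest from the PKCε libraries, and the second held 13.7%. Replicates differed unequally. Combined replicates 2 and 4 stood at a chi-square of 1.58 per degree of freedom against 10.3 to 15.9 for the other pairs of that group, and PKCε replicates 1 and 2 at 2.63 against 8.45 and 13.2. Transcripts of the sex chromosomes went against the shared male label. PKCε replicate 2 and combined replicate 1 held mainly Y-linked transcripts, PKCε replicate 3 and combined replicates 2 and 4 mainly Xist, and PKCε replicate 1 and combined replicate 3 both, so that each group held all 3 patterns. Markers of cardiac myocytes summed to 132000 to 132800 CPM (counts scaled to a common library size) in PKCε libraries and 125100 to 130700 CPM in combined libraries, and markers of atrial myocytes to 176 to 190 and 143 to 197 CPM.

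Prkcd itself stood at 20.1, 18.2 and 18.1 CPM in the PKCε libraries and at 11.4, 16.4, 13.2 and 15.4 CPM in the combined libraries. Every combined library lay below every PKCε library, and the fall was small (log2 fold change -0.41 ± 0.13, SE, adjusted p = 0.019). In wild-type background the same ablation gave 0.21 ± 0.13 (adjusted p = 0.38), and the difference of both effects was -0.62 (adjusted p = 0.022). Since the deleted exons are unnamed and other cells of the heart also make Prkcd, a count over the whole gene is no check of the ablation. Prkce stood at 7.62 to 9.19 CPM in PKCε and 6.59 to 7.69 CPM in combined libraries, where both groups carry the knockout (-0.20 ± 0.33, adjusted p = 0.70). Unstressed wild-type libraries held 46.9 to 52.9 CPM.

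Against this background 3472 of 13765 genes were called (25.2%), 1845 higher (13.4%) and 1627 lower (11.8%). At least 2-fold higher were 298 genes (2.16%) and at least 2-fold lower 159 (1.16%), and for 66 and 27 genes the difference reached 4-fold (0.479% and 0.196%). Groups did not overlap in 4692 genes, 34.1% of those tested. Without PKCε replicate 1 the count was 1998, 1035 higher and 963 lower, so list counts in that fit stand beside fewer calls. In RNA of whole tissue, more or fewer cells of a type and more or less RNA per cell cannot be told apart. Contractile protein and ion channel genes were among the largest differences. Myh7 fell to its wild-type level, the inward rectifier gene Kcnj14 and the T-type calcium channel gene Cacna1h rose, and Acta1 rose. Among the gene lists, 22 of 41 cell cycle genes were higher, and 16 of 35 fatty acid, 20 of 47 respiratory chain and 10 of 24 calcium handling genes were lower.

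**Figure D1:**
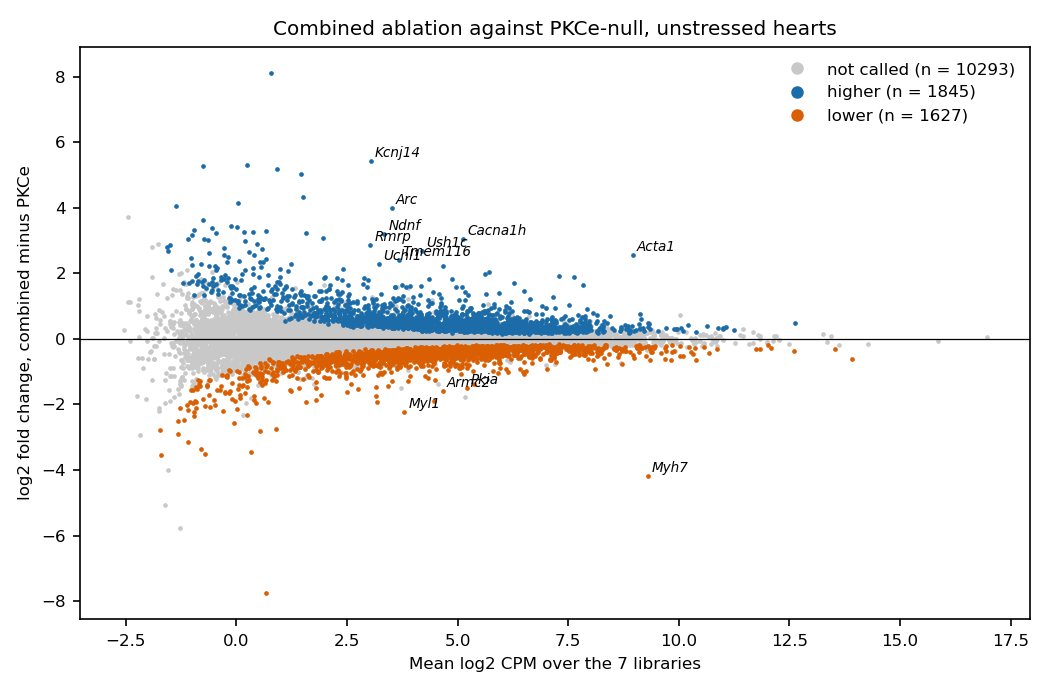
Each point is 1 of 13765 genes, with its mean level over the 7 libraries (log2 CPM, horizontal axis) and its log2 fold change, combined minus PKCε (vertical axis). Genes called higher are blue (1845), genes called lower orange (1627) and the rest grey, and Myh7 lies at -4.20.

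The fold changes followed the base composition of the transcripts. Over 13660 genes with a value, log2 fold change and GC content of the transcript had a Spearman correlation of 0.45, given as a description since genes are not independent and share the same 7 libraries. Of the 2732 genes lowest in GC (31% to 44.2%) 3.22% were called higher and 24.4% lower, and of the 2732 highest (55.6% to 72.8%) 32.9% were higher and 1.54% lower. GC content weighted by counts was 51.7% to 51.9% in PKCε libraries and 52.1% to 52.3% in combined libraries, without overlap. It was 51.77% to 51.96% in unstressed wild-type and 51.54% to 51.85% in unstressed PKCδ libraries, so the combined group stood apart among unstressed hearts. The correlation was -0.19 for PKCδ ablation in wild-type background and -0.03 for combined against PKCε hearts after TAC. With offsets for GC content and length, an alternative added after this trend was seen, it was 0.05, and 2560 genes were called, of which 1948 were among the 3472 and in the same direction. The 2560 were 1349 higher and 1211 lower, the counts to set beside list counts with offsets. Whether the trend arose in the making of the libraries was not tested.

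**Figure D2:**
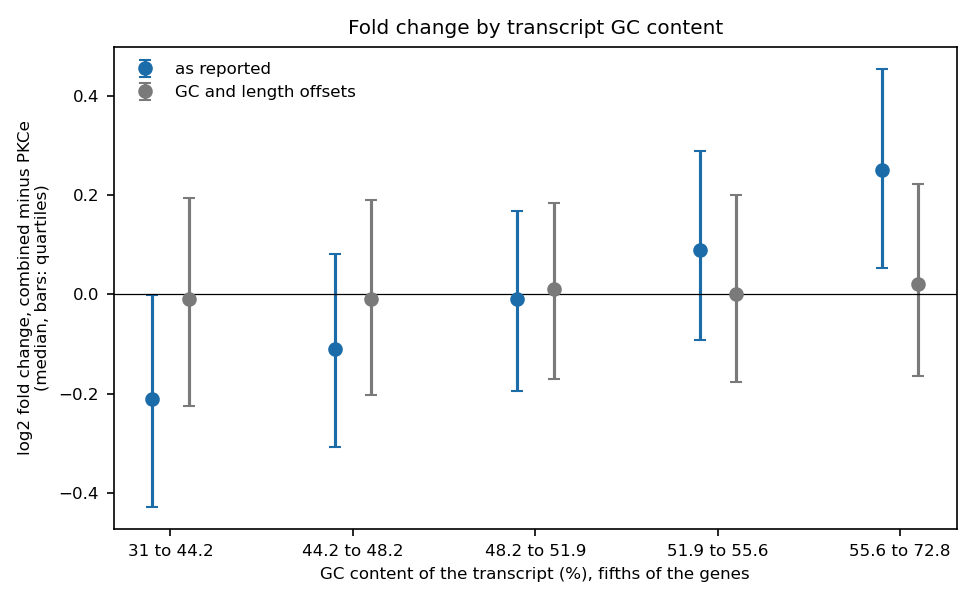
Log2 fold change (combined minus PKCε, vertical axis) in 5 equal groups of genes ordered by the GC content of their transcripts (horizontal axis, %), as median and quartiles. As reported (blue), medians climb from -0.21 to 0.25, and with GC and length offsets (grey) they lie between -0.01 and 0.02.

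Isoforms of myosin and actin were among the largest contrasts, and their promoters are printed here because the factors that bind them are well known. Both are RefSeq promoters (GRCm38.p6) of 300 bases, from 250 bases before the start of the transcript, on the minus strand, with Myh7 at chr14:54994577-54994876 (the upstream one of 2 listed starts, the other of which held no MCAT element in its window) and Acta1 at chr8:123894726-123895025. The capitals mark the MCAT element (CATTCC on either strand), bound by TEAD factors, in Myh7, and in Acta1 the CArG box, bound by serum response factor. The Acta1 promoter also holds 1 MCAT element, left in lower case.
Myh7: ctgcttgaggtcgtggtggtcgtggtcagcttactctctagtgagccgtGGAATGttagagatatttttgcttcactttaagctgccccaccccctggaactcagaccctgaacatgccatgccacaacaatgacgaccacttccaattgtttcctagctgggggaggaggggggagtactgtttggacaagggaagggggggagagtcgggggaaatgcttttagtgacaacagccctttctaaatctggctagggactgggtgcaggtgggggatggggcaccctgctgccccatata
Acta1: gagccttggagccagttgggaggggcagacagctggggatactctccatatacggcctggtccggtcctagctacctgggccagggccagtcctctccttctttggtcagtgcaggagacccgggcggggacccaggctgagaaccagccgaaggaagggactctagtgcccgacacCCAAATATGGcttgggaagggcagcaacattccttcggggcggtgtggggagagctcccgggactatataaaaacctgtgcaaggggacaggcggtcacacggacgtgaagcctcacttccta
The match begins at -201 in Myh7 and at -73 in Acta1, counted from the start. Of the promoters of tested genes 12.5% held an MCAT element (11.4% of those of genes called higher and 12.1% of those called lower), and 1.34% held a CArG box (1.42% and 0.988%). Neither element was more frequent in one direction by more than 1 percentage point. A match describes letters, not binding.

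Myh7 was abundant in the PKCε libraries, at 3426, 4292 and 2373 CPM, and stood at 181, 187, 170 and 196 CPM in the combined libraries. The 4 combined values lie close together and far below the PKCε values (-4.20 ± 0.42, adjusted p = 1.9e-06). Unstressed wild-type hearts held 187 ± 19.4 CPM (SD, n = 4) and PKCδ hearts 138 ± 8.51 (n = 3), so the combined libraries were at the level of wild type and the PKCε libraries stood apart. Opposite-strand genes, Mhrt among them, cover 17.9% of the exonic bases of Myh7, and the libraries are without strand. Another myosin gene that fell was Myh2, which encodes the heavy chain of fast oxidative skeletal fibres. Like Tnni1, Gdf15, Dbh and the list members beyond the 4 with the smallest adjusted p of a list, it was named after its values were seen. It had 230, 332 and 187 reads in PKCε libraries and 1, 2, 2 and 0 in combined libraries. The ratio of the levels, PKCε over combined, was 233 (95% interval 99.4 to 719, which covers counting error only; edgeR adjusted p = 0.00041).

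After TAC neither myosin separated the groups. Myh2 stood at 2.99 to 18.1 CPM in the 4 PKCε TAC libraries and at 6.27 to 7.66 CPM in 3 combined TAC libraries. The fourth, combined TAC replicate 2, held 0.15 CPM, and it also held 31.5 CPM of Prkce, which goes against its label. Myh7 stood at 2851 to 6173 CPM in PKCε TAC and 3674 to 10318 CPM in combined TAC libraries, and these ranges overlap. Among libraries with little Prkce, the 4 unstressed combined ones were thus the only ones with less than 1 CPM of Myh2.

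Acta1 stood at 206, 294 and 93.1 CPM in PKCε and at 1944, 745, 1174 and 786 CPM in combined libraries. No combined library overlapped with the PKCε libraries, and replicates 1 and 3 were the highest (2.56 ± 0.48, adjusted p = 0.00082). In wild-type background the ablation gave 1.41 ± 0.44 (adjusted p = 0.067), and the difference of the effects was not called (1.15, adjusted p = 0.23). Myl1, a myosin light chain gene of fast muscle and atrium, fell from 38.2, 49.7 and 18.3 to 4.78, 10.4, 5.59 and 9.34 CPM (-2.22 ± 0.53, adjusted p = 0.0045). Tnni1, the slow skeletal troponin I gene of the fetal heart, was at 0, 1 and 5 reads in PKCε and 79, 15, 51 and 30 reads in combined libraries, a ratio of 18.8 (8.45 to 51.8, counting error only). Of 26 measured stress and fetal genes 6 were higher and 2 lower (4 and 1 with offsets, and 3 higher without PKCε replicate 3). All genes tested gave 13.4% higher and 11.8% lower, and 1647 of 13933 higher without PKCε replicate 3. The median log2 fold change of the list was 0.39 against 0.00 over all genes. Higher were also Uchl1, a ubiquitin hydrolase gene (2.27 ± 0.34), Tnfrsf12a, the TWEAK receptor gene (0.72 ± 0.21), and the cytokine gene Gdf15, whose counts were low (ratio 6.09, interval 3.57 to 11.2).

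The natriuretic peptide genes, Ankrd1 and Myh6 were not called. Nppa, the atrial natriuretic peptide gene, stood at 90.6 to 101 CPM in PKCε and 53.3 to 95 CPM in combined libraries (-0.35 ± 0.47, adjusted p = 0.63), with 61.5% of its exonic bases opposite another gene. Nppb stood at 39.1 to 121 and 64.3 to 94.2 CPM (adjusted p = 0.67). The ankyrin repeat gene Ankrd1, induced in stressed myocytes, had no overlap between the groups but a wide spread, at 765 to 837 and 879 to 2055 CPM (0.73 ± 0.35, adjusted p = 0.13). Myh6 stood at 60270 to 62320 and 55850 to 62780 CPM (-0.06 ± 0.08, adjusted p = 0.61; -0.24, adjusted p = 0.044 with offsets), and Actc1, the cardiac actin gene, and Ryr2, the calcium release channel gene, were not called either. Of 31 measured genes of the sarcomere and Z disc 5 were higher and 4 lower (5 and 5 with offsets), and 3 were higher without PKCε replicate 2. Both counts were near the shares over all genes, 13.4% higher and 11.8% lower. Mybpc3, myosin-binding protein C (0.49 ± 0.09), and Myh7b (0.74 ± 0.16) rose, and Nexn (-0.50 ± 0.11), Myoz2 (-0.42 ± 0.10) and Myl2, the ventricular light chain (-0.35 ± 0.11), fell.

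**Figure D3:**
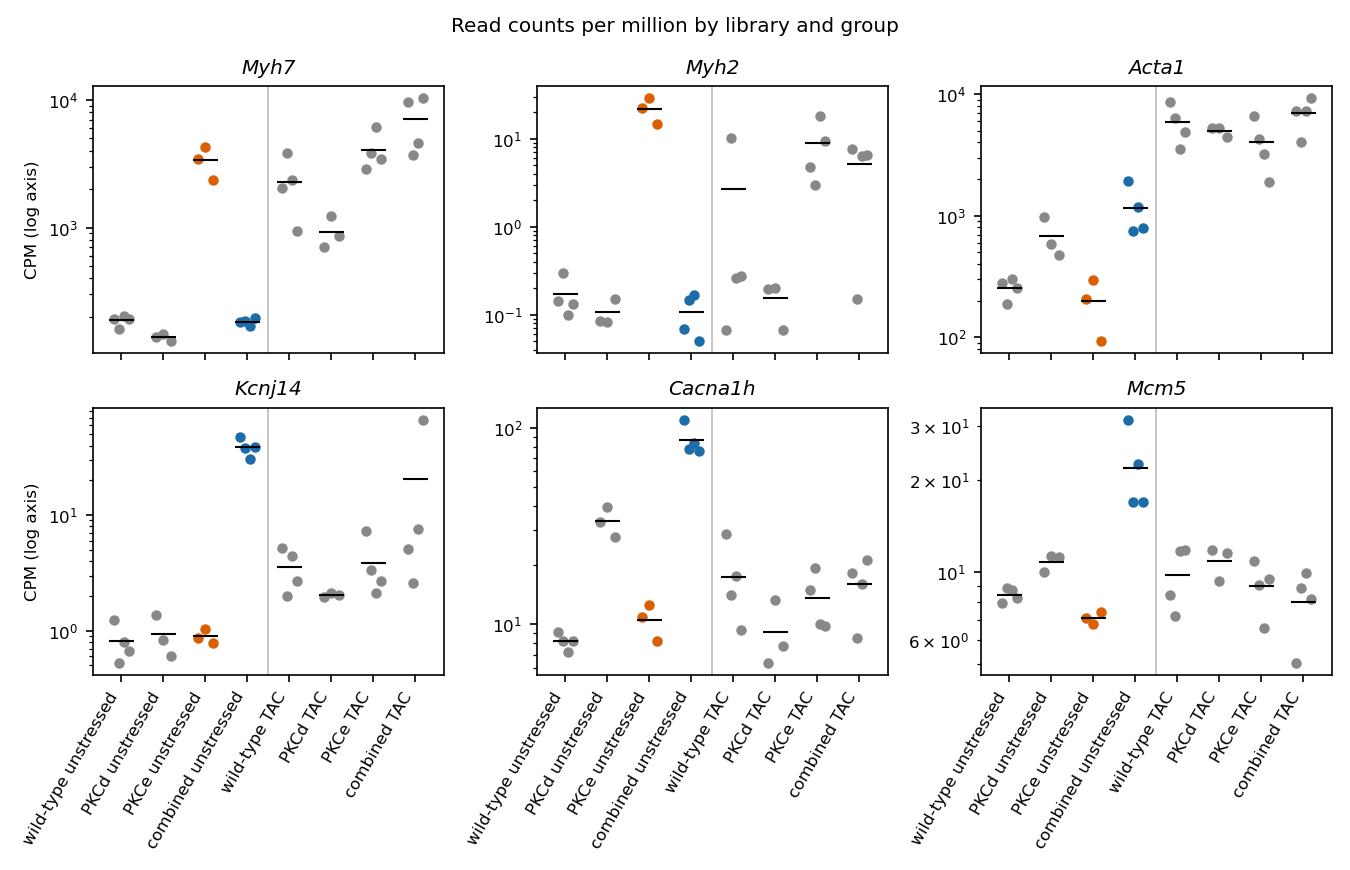
CPM (logarithmic vertical axes) of 6 genes in every library, by group (horizontal axis), with PKCε unstressed in orange, combined unstressed in blue, other groups in grey, and bars for group means. Values under 0.05 CPM are drawn at 0.05. Myh7 and Myh2 are high in the PKCε libraries and at the wild-type level in the 4 combined ones, Kcnj14 and Mcm5 are highest among unstressed groups in the combined one, and Cacna1h and Acta1 have higher means in both unstressed groups with PKCδ ablation than in the other unstressed groups.

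Above a log2 CPM of 2 (mean of the 7 libraries), the largest rise was in a channel gene. Kcnj14, which encodes the inward rectifier Kir2.4, stood at 0.86, 1.04 and 0.78 CPM in PKCε and at 47.9, 37.9, 30.8 and 39 CPM in combined libraries. The groups were far apart with little spread inside each (5.44 ± 0.99, adjusted p = 0.00058). Wild-type and PKCδ unstressed hearts held 0.81 ± 0.30 and 0.93 ± 0.39 CPM, and the difference from the effect in wild-type background did not pass the test (5.24, adjusted p = 0.063). After TAC 1 of 4 combined libraries, replicate 4, held 67.0 CPM and the other 3 held 2.59 to 7.56. Cacna1h, the Cav3.2 T-type calcium channel of fetal and stressed myocytes, rose from 10.8, 12.6 and 8.25 to 110, 77.5, 83.1 and 76.1 CPM (3.04 ± 0.36, adjusted p = 7.9e-06). It was raised by PKCδ ablation in wild-type background too, by 2.02 ± 0.34 (adjusted p = 0.0015).

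Several other channels fell. Kcnv2, a modifier subunit of Kv2 channels, stood at 18, 18.4 and 20.3 CPM in PKCε and 1.46, 7.40, 7.18 and 6.87 CPM in combined libraries (-1.73 ± 0.35, adjusted p = 0.0013). Hcn4, a pacemaker channel gene, fell by 0.72 (SE 0.22). Cacna1s, the skeletal L-type calcium channel gene, fell from 16.6 to 17.4 CPM over PKCε libraries to 2.08 to 9.01 CPM over combined ones (-1.45 ± 0.31, adjusted p = 0.0018), with 18.9% of its exonic bases under an opposite-strand gene. Among repolarising channels Kcnj2 (Kir2.1) fell by 0.65 (SE 0.14) while Kcnh2 (ERG, 0.71 ± 0.12) and Kcne1 (1.35 ± 0.44) rose. In the whole list of 27 ion channel and conduction genes 4 were higher and 6 lower (2 and 6 with offsets). The higher count was near the share over all genes (13.4%, against 11.8% lower). It was 1 without PKCε replicate 1 and 2 without PKCε replicate 3 or combined replicate 1.

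Calcium handling moved mostly down, with 10 of 24 measured genes lower and Cacna1h alone higher (7 and 2 with offsets, and 6 lower without PKCε replicate 1). Its median was -0.21 (-0.10 with offsets). Of all genes tested 11.8% were lower and 13.4% higher. Atp2a2, the SERCA pump gene, stood at 13060 to 13700 CPM in PKCε and 9915 to 11240 CPM in combined libraries (-0.31 ± 0.09, adjusted p = 0.016). Its inhibitor phospholamban, Pln, stood at 1795 to 2134 and 1297 to 1600 CPM (-0.44 ± 0.14, adjusted p = 0.019), a call that ended with offsets (adjusted p = 0.21), and 59.6% of its exonic bases lie opposite another gene. Neither gene's groups overlapped. Other members lower were Cacna2d1, a calcium channel subunit (-0.65 ± 0.09), the kinase gene Camk2d (-0.47 ± 0.08), the receptor gene Itpr2 (-0.73 ± 0.13) and the exchanger gene Slc8a1 (-0.39 ± 0.10). Pkia, the inhibitor peptide of protein kinase A, fell from 63.4 to 70.8 CPM to 17.4 to 31.3 CPM (-1.49 ± 0.22, adjusted p = 6.3e-05).

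The fatty acid list held 16 of 35 measured genes lower and 1 higher (18 and 1 with offsets), with a median log2 fold change of -0.28 (-0.25 with offsets), against 11.8% lower and 13.4% higher over all genes. Its summed level was 20380 to 23440 CPM in PKCε and 17390 to 20020 CPM in combined libraries, without overlap. The genes encode steps of β-oxidation from uptake onward. Decr1, the 2,4-dienoyl-CoA reductase, stood at 207, 208 and 148 CPM in PKCε and at 98.4, 104, 97.4 and 101 CPM in combined libraries. All combined libraries were lower, and the lowest PKCε value was that of replicate 3 (-0.90 ± 0.12, adjusted p = 1.0e-05). Acadvl, the dehydrogenase of very long acyl chains, fell by 0.62 (SE 0.07), but 45% of its exonic bases lie opposite Dvl2. Hadh (-0.75 ± 0.11) and Etfa, an electron carrier (-0.55 ± 0.09), fell, and so did the transporter gene Cd36 (-0.60 ± 0.15) and the trifunctional protein gene Hadha (-0.32 ± 0.08). Ucp2, a mitochondrial carrier, was the member that rose, from 70.1 to 129 CPM to 257 to 480 CPM (1.90 ± 0.35, adjusted p = 0.00063). The PPARα-responsive genes Pdk4 and Ucp3 were spread widely, with Pdk4 at 61.9 to 426 CPM in PKCε and 175 to 993 CPM in combined libraries (adjusted p = 0.56).

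Respiratory chain genes fell in 20 of 47 cases and none rose, against 11.8% lower and 13.4% higher over all genes. The counts were 17 and 1 with offsets, and 13 were lower without PKCε replicate 1. The median was -0.18 (-0.16 with offsets), and summed levels were 34060 to 34810 and 30510 to 32720 CPM. Uqcrc2, a core subunit of complex III, stood at 479, 458 and 414 CPM in PKCε and at 235, 295, 253 and 280 CPM in combined libraries (-0.76 ± 0.10, adjusted p = 6.5e-06). The groups lay well apart, though 26.6% of its exonic bases overlap Pdzd9 on the other strand. Further members were Ndufa9 of complex I (-0.42 ± 0.07), Cox6b1 of complex IV (-0.38 ± 0.06) and Cycs, cytochrome c (-0.57 ± 0.10). Of the regulators of these genes, Ppargc1a fell by 0.39 (SE 0.14, adjusted p = 0.039; adjusted p = 0.23 with offsets) and Esrra rose by 0.33 (SE 0.11). In glucose use 4 of 30 measured genes were higher, near the share over all genes, and 6 lower (3 and 4 with offsets). The higher count was 1 without PKCε replicate 2 and 2 without PKCε replicate 1 or 3 or combined replicate 1 or 3, and the lower count was 10 on the 7 libraries alone.

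**Figure D4:**
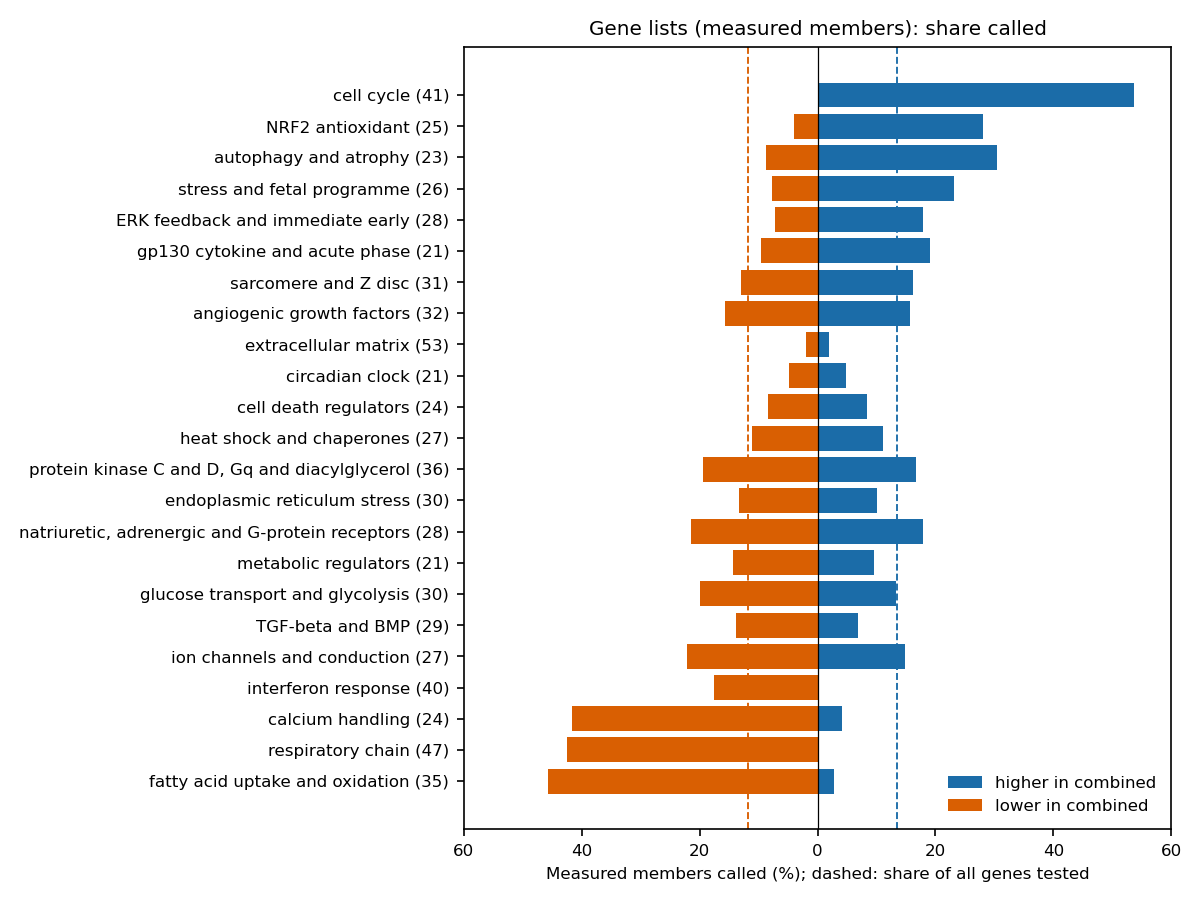
Percent of the measured members of each of 23 pathway lists, without the cell type lists (number in brackets) called higher (blue, to the right) or lower (orange, to the left), with dashed lines at the shares over all genes, 13.4% and 11.8%. Among these, the cell cycle list reaches farthest right and the fatty acid, respiratory chain and calcium handling lists farthest left.

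The cell cycle list held 22 of 41 measured genes higher and 0 lower (22 and 0 with offsets), against 13.4% and 11.8% over all genes. Its median was 0.65 (0.71 with offsets). Its summed level was 698 to 699 CPM in the 3 PKCε libraries and 833 to 1105 CPM in the combined ones. Most members were at low levels. Mcm5, a subunit of the replicative helicase, stood at 7.08, 6.76 and 7.39 CPM in PKCε and at 31.5, 17, 22.5 and 17 CPM in combined libraries. The PKCε values nearly coincide and all combined values are above them, with replicate 1 the highest (1.63 ± 0.22, adjusted p = 1.6e-05). The transcription factor gene E2f1 rose by 1.67 ± 0.25, Mcm2 by 1.24 ± 0.24 and Foxm1 by 1.31 ± 0.27. Genes of later phases were called with larger errors, Mki67 at 1.0 ± 0.33, Ccna2 at 1.46 ± 0.41, Ccnb1 at 1.63 ± 0.53 and Aurkb at 0.95 ± 0.34. Without combined replicate 1 the count was 11 of 41 with a median of 0.45, without PKCε replicate 2 it was 13, and on the 7 libraries alone it was 16. Calls over all genes fell in the same fits, from 1845 higher to 1274, 1241 and 1680. After TAC the median of the same comparison was -0.08, and the difference of the effects for Mcm5 was -1.75 (adjusted p = 0.0042).

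The Mcm5 promoter (RefSeq, GRCm38.p6, chr8:75109259-75109558, plus strand) is shown because it held overlapping matches to an E2F site, TTTNNCGC on either strand, in capitals.
Mcm5: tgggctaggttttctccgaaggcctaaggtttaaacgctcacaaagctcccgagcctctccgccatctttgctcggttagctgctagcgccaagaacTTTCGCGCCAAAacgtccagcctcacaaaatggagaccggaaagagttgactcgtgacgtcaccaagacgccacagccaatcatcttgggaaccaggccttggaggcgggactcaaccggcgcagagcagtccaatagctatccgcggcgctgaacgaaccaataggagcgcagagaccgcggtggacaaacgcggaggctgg
This motif was searched after the list's calls were seen. It was in 5 of 20 promoters of cell cycle genes called higher and in 2 of 17 of other members, against 7.80% of promoters of all tested genes and 5.17% of all promoters in the table. Among all genes called higher 7.41% of promoters held it and among those called lower 7.65%. For the whole comparison promoters differed little in GC content, with medians of 61.3% for higher and 60.2% for lower genes, unlike the transcripts, at 55.5% and 45.2%.

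Markers of other cells moved beside these lists, and the shares over all genes were 13.4% higher and 11.8% lower. Of 24 measured macrophage and monocyte markers 9 were higher and 0 lower (10 and 0 with offsets), and the summed level was 460 to 515 CPM in PKCε and 610 to 677 CPM in combined libraries. The complement genes C1qa (0.65 ± 0.08, adjusted p = 5.3e-06), C1qb and C1qc (0.78 ± 0.10) and the receptor gene Csf1r (0.44 ± 0.09) led, all without overlap. Emr1, the gene of the macrophage surface marker F4/80, was not called, at 7.62 to 9.66 CPM in PKCε and 6.79 to 8.58 CPM in combined libraries (-0.20 ± 0.19, adjusted p = 0.45). No marker of macrophages in the file was at 0. Endothelial markers were lower in 6 of 18 cases (7 with offsets, 3 without PKCε replicate 3) with Pecam1 at -0.40 ± 0.07 and Emcn at -0.86 ± 0.16, fibroblast markers in 5 of 18 (4 with offsets, 2 without combined replicate 1, 3 without PKCε replicate 1 or 2) with Pdgfra at -0.49 ± 0.14, and pericyte and smooth muscle markers in 4 of 12 (5 with offsets) with Kcnj8 at -0.53 ± 0.11. None of these 3 lists had a member called higher in the fit on all 29 libraries, while the fit on the 7 libraries alone called 2 fibroblast and 1 pericyte markers higher and 7 of each lower. Fibroblast sums did not overlap, at 2512 to 2833 and 2100 to 2421 CPM, while endothelial sums did, at 2697 to 2803 and 2352 to 2771 CPM. Pericyte and smooth muscle sums overlapped too and reached higher in combined libraries, at 4171 to 4297 and 4226 to 4801 CPM. Skeletal muscle markers split, with Myh2, Myh1 and Mylpf lower and Ckm, which cardiac muscle also makes, higher (0.38 ± 0.11). The part of these markers in the cell cycle, interferon and metabolic lists was not tested.

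Interferon-responsive genes were lower in 7 of 40 cases and higher in 0 (8 and 0 with offsets), with a median of -0.32. Over all genes 11.8% were lower and 13.4% higher. All 7 encode GTPases of interferon-induced defence, the guanylate-binding proteins Gbp2, Gbp3, Gbp4, Gbp6 and Gbp7 and the immunity-related Iigp1 and Irgm1. Iigp1 stood at 23.4, 23.5 and 14.7 CPM in PKCε and at 1.80, 7.77, 5.17 and 7.0 CPM in combined libraries (-1.91 ± 0.31, adjusted p = 0.00018). Gbp4 fell by 1.28 (SE 0.20, adjusted p = 5.7e-05). The other 33 members were not called, and summed levels overlapped at 648 to 905 and 525 to 770 CPM.

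In the list of protein kinases C and D, Gq and diacylglycerol enzymes 7 of 36 genes were lower and 6 higher, and with offsets 7 lower and 0 higher. Over all genes 11.8% were lower and 13.4% higher without offsets. The higher count was 1 without PKCε replicate 1 and on the 7 libraries alone, 2 without PKCε replicate 2 or combined replicate 1, and 3 without combined replicate 2, 3 or 4. The lower count was 4 without PKCε replicate 1. Lower beside Prkcd were the phospholipase genes Plce1 (-0.43 ± 0.08) and Plcb1 (-0.44 ± 0.13), the kinase genes Prkd3 (-0.42 ± 0.10), Prkca (-0.25 ± 0.09) and Prkcq (-0.80 ± 0.24) and the diacylglycerol kinase gene Dgke (-0.42 ± 0.13). Arc, an immediate early gene first known from neurons, stood at 1.72, 2.86 and 3.35 CPM in PKCε and 74.5, 13.7, 66.4 and 18.5 CPM in combined libraries (4.00 ± 0.64, adjusted p = 0.0002). Wild-type hearts held 47.1 ± 11.4 CPM of it. This mean lay above all PKCε libraries and combined replicates 2 and 4, and below combined replicates 1 and 3. Of 28 ERK feedback and immediate early genes 5 were higher and 2 lower, against 13.4% and 11.8% over all genes. With offsets the counts were 3 and 0. Jund (0.76 ± 0.13, with 52.6% of its exonic bases opposite another gene) and Jun (0.68 ± 0.24) were among the higher ones. The higher count was 3 without any 1 of the 7 libraries other than combined replicate 3, and 8 on the 7 libraries alone. The lower count was 0 without PKCε replicate 2 or combined replicate 1 or 2. The α1A-adrenergic receptor gene Adra1a rose by 0.67 ± 0.18 and the receptor kinase gene Grk5 by 0.77 ± 0.17, while the regulators of G-protein signalling Rgs4 (-1.10 ± 0.18) and Rgs5 (-0.63 ± 0.12) and the clearance receptor gene Npr3 (-1.01 ± 0.19) fell.

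The next 4 lists are set beside the shares over all genes, 13.4% higher and 11.8% lower. Antioxidant genes of the NRF2 list were higher in 7 of 25 cases and lower in 1 (6 and 0 with offsets). The glutathione peroxidase genes Gpx1 (0.84 ± 0.13), Gpx4 (0.49 ± 0.09) and Gpx3 (0.91 ± 0.20) led. Autophagy and atrophy genes were higher in 7 of 23 and lower in 2 (4 and 2 with offsets), with Ulk1, Ctsb and Tfeb higher and the ubiquitin ligase gene Trim63 lower. In the extracellular matrix 1 of 53 genes was higher and 1 lower, below both shares (0 and 3 with offsets, 4 and 4 on the 7 libraries alone). Lama2, the laminin chain of the muscle basement membrane, fell by 0.70 (SE 0.10), and Hspg2, perlecan, was higher by 0.31 ± 0.10 (adjusted p = 0.029; 0.67 with offsets). Among matrix genes fixed by name, adjusted p was 0.26 for Col1a1, 0.73 for Col3a1, 0.72 for Postn and 0.44 for Ctgf. Of 21 circadian genes only Per1 was higher (1.21 ± 0.34) and only Nr1d2 lower (-0.48 ± 0.15), again below both shares. The call of Per1 ended with offsets (adjusted p = 0.056), and without PKCε replicate 1 neither gene was called.

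Other genes with large differences have less settled roles in heart. Ndnf, which encodes a secreted factor of neurons and endothelium, rose from 2.43 to 3.27 CPM to 17 to 41.4 CPM (3.21 ± 0.54, adjusted p = 0.00031), and PKCδ ablation in wild-type background raised it too (2.84 ± 0.51, adjusted p = 0.0027; difference 0.37, adjusted p = 0.79). Ush1c, the harmonin scaffold gene, rose from 5.65 to 7.31 CPM to 33.4 to 48.1 CPM (2.67 ± 0.48). Rmrp, the RNA of an endoribonuclease (2.87 ± 0.58), and Tmem116 (2.40 ± 0.20) rose too, the latter with 31.4% of its exonic bases opposite other genes. Armc2 fell from 45.9 to 52.4 CPM to 10.4 to 19.8 CPM (-1.60 ± 0.18, adjusted p = 2.6e-06), Asb5 by 1.54 (SE 0.24) and the imprinted RNA H19 by 1.44 (SE 0.30). Dbh, dopamine β-hydroxylase of sympathetic nerves, had 37, 48 and 52 reads in PKCε and 4, 12, 6 and 8 reads in combined libraries.

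Set beside the 4 unstressed wild-type libraries, the 2 groups took different places for different genes. Of the 298 genes at least 2-fold higher, the range of the combined libraries alone lay off the wild-type range in 157 (52.7%), that of the PKCε libraries alone in 40 (13.4%), both in 38 and neither in 63. Of the 159 genes at least 2-fold lower the numbers were 78 (49.1%), 28 (17.6%), 15 and 38. Over all genes tested the shares were 22.9% for combined alone and 8.86% for PKCε alone, and over all 3472 called genes 53.6% and 12.0%. Called genes were chosen for a difference between the 2 groups, and groups of 4 and 3 libraries differ in range by their number alone, so these are descriptions. Among the 20 genes with the largest differences above a log2 CPM of 2, Arc, Rmrp, Myh7, Armc2 and H19 were those where the PKCε libraries alone stood off wild type.

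Whether the effect of losing PKCδ depended on the loss of PKCε was tested as the difference between this comparison and PKCδ against wild type, which share no library. The difference was called in 2125 genes (15.4%), 1151 higher (8.36%) and 974 lower (7.08%). PKCδ ablation in wild-type background itself gave 729 called genes (5.3%), 363 higher (2.64%) and 366 lower (2.66%). All unstressed libraries are labelled male. Yet the 5 sex-linked genes (Xist and Y-linked) had a median log2 fold change of -7.71 for PKCδ against wild type, with 0 called. With a score of Y-linked transcripts in place of the sex label, 2380 differences between the backgrounds were called. The part of sex in the PKCδ effect on wild-type background was not tested further. Myh7 gave a difference of -3.75 (adjusted p = 0.00052), Arc 3.63 (adjusted p = 0.0057) and Armc2 -1.93 (adjusted p = 0.00014). For Kcnj14, Cacna1h, Ndnf, Acta1, Myl1, Kcnv2 and Cacna1s the difference did not pass the test. In the cell cycle list 7 of 41 genes gave a higher and 1 a lower difference, and the median effect in wild-type background was 0.19. In the fatty acid list 8 of 35 gave a lower and 2 a higher difference, with a wild-type median of -0.06, and in the respiratory chain list 9 of 47 lower and 5 higher, with -0.03. With GC and length offsets 917 differences were called, and without PKCδ unstressed replicate 3 or PKCε unstressed replicate 1 the counts were 988 and 1025.

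**Figure D5:**
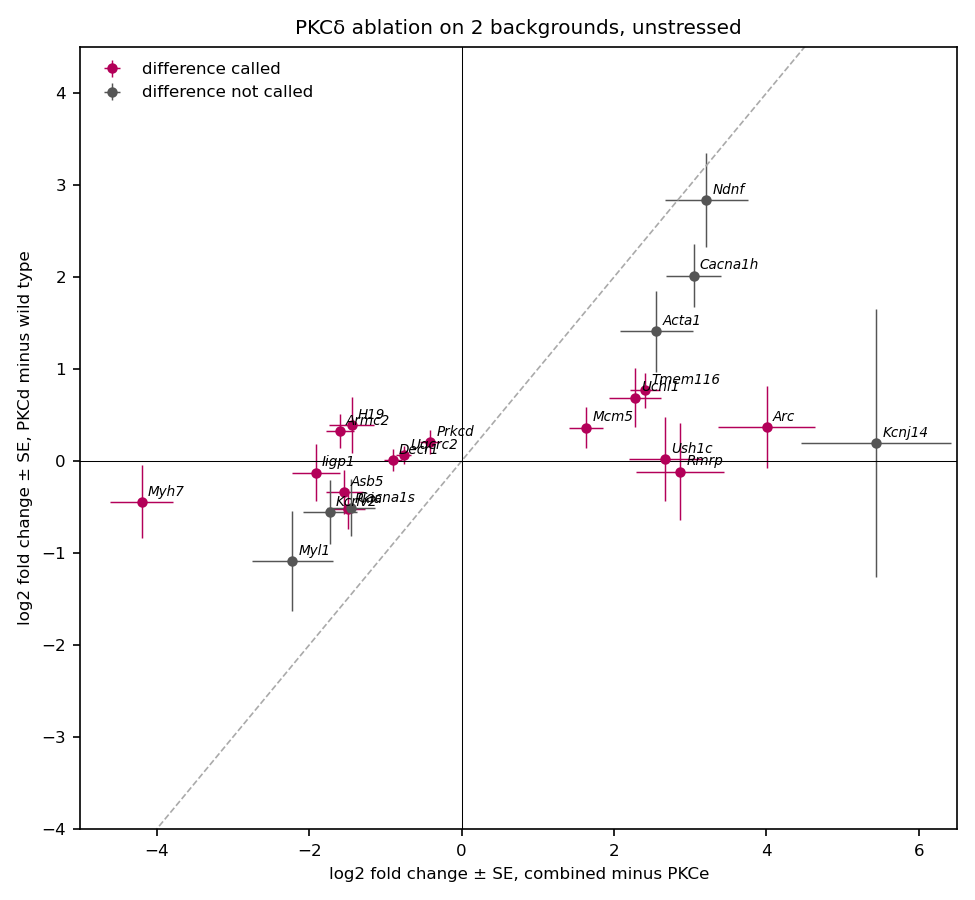
Log2 fold change ± SE of PKCδ ablation in PKCε-null background (combined minus PKCε, horizontal axis) and in wild-type background (PKCδ minus wild type, vertical axis), unstressed, for 18 leading genes, Prkcd, Mcm5, Decr1 and Uqcrc2. The dashed line marks equal effects, magenta points have a called difference, and Ndnf and Cacna1h moved the same way on both axes.

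After TAC the same comparison of combined with PKCε hearts called 0 genes with edgeR, 832 at an unadjusted p under 0.05, and 9 with DESeq2 (n = 4 and 4). By label, combined TAC replicates 1, 2 and 4 were female and the rest of both TAC groups male. Sex and genotype thus cannot be fully told apart in this comparison. The edgeR count was 13 with no sex term and 95 with a score of Y-linked transcripts. Without combined TAC replicate 2, the library with Prkce transcripts, 10 genes were called, and without PKCε TAC replicate 1, 27. The difference between the effects after TAC and unstressed was called in 691 genes (5.02%), 401 of them lower (2.91%) and 290 higher (2.11%) after TAC. It was 4.99 for Myh7 (adjusted p = 0.00018), -2.68 for Cacna1h (adjusted p = 0.0081) and -2.29 for Tmem116 (adjusted p = 8.5e-05). This count depended on the model. It was 13 on the 15 libraries of the 4 groups alone, and 1853 without the sex label, a term that only TAC libraries vary in.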

How the data were processed

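The series holds 29 polyadenylated, unstranded, single-end RNA libraries of mouse hearts. The authors' deposited values are raw counts of reads per gene for each library, and per the submitters' processing notes TopHat2 2.0.10, Bowtie2 and HTSeq were used with the mm10 build. The series table was identical over 23391 shared gene names, so the library files were used. Of 23420 genes 13765 passed filterByExpr, and 5 rows outside genes were left out.

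All 29 libraries were fitted with edgeR 4.0.16 (quasi-likelihood test, robust, TMM scaling, group means and the sex label, 20 residual degrees of freedom, prior count 0.125) in R 4.3.3, with Benjamini-Hochberg adjustment over all tested genes and a threshold of 0.05. SE is the absolute log2 fold change divided by the square root of F. CPM use TMM-scaled library sizes. The script was tested on simulated data. Assigned reads numbered 10931271 to 15264623 in the 7 libraries, and intervals on counts are exact and cover counting error only.

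Genes were named by rule: both kinase genes, the 10 largest changes each way among called genes (mean log2 CPM of at least 2, no overlap, no predicted-gene symbols), at most 4 called members of a list by smallest adjusted p, and 20 genes fixed by name whatever their values. Some genes that meet the rule are not reported here. Other list members were picked after their values were seen. Members and lists were chosen with earlier results of these data known. Alternatives were RLE scaling, no filter, other sex terms, the replicate block, fewer libraries in the fit, DESeq2 1.42.0, close replicates summed, each library left out, and GC and length offsets. Positions and promoters came from RefSeq GRCm38.p6 (13715 genes matched). Overlaps with opposite-strand genes came from the GENCODE annotation, and GC content and length from GENCODE transcripts (13660 genes). Promoters were found for 10832 genes.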

Additional observations from a re-analysis of the deposited data

Results flagged for a closer look

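Of 121 named genes, 9 had a combined library whose gap to the nearest other, divided by the range of the 4, exceeded Dixon's 95% critical value for 4 samples, where chance gives about 1 in 20. Combined replicate 1 stood apart for Kcnv2 (0.91), Lama2 (0.896), Hspb3 (0.875), Gpx4 (0.896), Fgl2 (0.848) and Atp2a2 (0.838). Combined replicate 3 stood apart for Hadh (0.831), Ednra (0.833) and Pdk4 (0.946). Combined replicates 1 and 3 both exceeded 2 and 4 in 6 of the 10 largest rises, and both lay below them in 8 of the 10 largest falls.

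For 13 of 38 leading genes the log2 effect of PKCδ ablation differed between PKCε-null and wild-type background in edgeR's test of the difference. Over all genes tested the share was 15.4%. Of the 38, 18 were chosen for a large change between combined and PKCε libraries, which enters this difference. Their number and directions follow in part from that choice. It was more positive in PKCε-null background for Arc (3.63), Rmrp (2.98), Ush1c (2.65), Tmem116 (1.64) and Uchl1 (1.58). It was more negative for Myh7 (-3.75), Armc2 (-1.93), H19 (-1.83), Iigp1 (-1.79), Asb5 (-1.2), Pkia (-0.97), Prkcd (-0.62) and Atp2a2 (-0.39).

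For 9 of the 38 the effect differed between TAC and unstressed hearts by the same test, against 5.02% of all genes tested. The same choice of genes enters this difference with the opposite sign. It was lower after TAC for Arc (-3.69), Rmrp (-3.37), Cacna1h (-2.68) and Tmem116 (-2.29). It was higher for Myh7 (4.99), Iigp1 (1.62), Armc2 (1.3), Asb5 (1.21) and Pkia (1.16).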

How the results depend on the processing

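The 3472 calls ranged from 3178 to 3722 under RLE scaling, no filter, other sex terms, DESeq2 and fits on fewer groups. They fell to 2291 with the closest replicates summed, to 1675 with GC and length offsets and without combined replicate 1, and to 1998 to 3300 with single libraries left out (lowest without PKCε replicate 1). The difference from wild-type background (2125) gave 1273 with replicates summed, 917 with offsets and 988 to 2370 with single libraries left out. The difference between TAC and unstressed hearts (691) gave 1853 with no sex term, 2125 with a score of Y-linked transcripts, 13 with only the groups compared, 296 with replicates summed, 322 with offsets and 219 to 1036 with single libraries left out, among them 394 without PKCε replicate 2, 294 without combined replicate 1, 393 without PKCε TAC replicate 2 and 441 without combined TAC replicate 3. After TAC, 0 calls became 13 with no sex term, 95 with the Y-linked score, 9 with DESeq2 and 0 to 27 with single libraries left out. The causes were not tested. No named gene reversed its direction between the reported fit and an alternative where either fit called it. Offsets ended the call of 26 of the 121 named genes, not all of which had been called. Offsets without combined replicate 1 ended 37.

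In deviations from their group means, same-numbered libraries correlated at -0.0634, 0.0242 and 0.113, and not every sample correlated best with its own number. Deviations within such small groups depend on each other, so these values cannot decide whether equal numbers mark pairs. With the replicate block the counts were 3364, 1877, 481 and 0.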
